A study of Mus musculus with 11 samples.

Results

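The genes described here are 10 regulators and markers of the blood and endothelial lineages: the transcription factors Tal1, Lmo2, Runx1, Gata1 and Etv2, the receptors Kdr and Tie1, and the cell surface adhesion molecules Esam, Cdh5 and Pecam1. They were taken from a list of symbols and not by a threshold on these arrays, but with earlier results of these data known. Agilent one-colour arrays carried 13 probes for them, out of 27642 probes that could be named for 20964 genes. The arrays measured total RNA of mouse embryonic stem (ES) cells, 1 array per sample, after at least 3 passages in serum/LIF (3 samples), 2i/LIF (5 samples) or KOSR/LIF (3 samples). All 3 media contain LIF, leukaemia inhibitory factor. The first contains serum, 2i blocks the kinases MEK and GSK3, and KOSR takes the place of serum with defined components. The samples were bulk and unsorted, and came from the lines E14, HVJu5.1 and HVJu9.3, all of the 129/Ola background. Serum/LIF and KOSR/LIF hold 1 sample of each line. For replicates 1 to 4 of 2i/LIF the line in the title is not the line in the source name. The series asks whether each medium holds ES cells in a state of its own.

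In the embryo, blood and endothelium arise together from mesoderm. Etv2, an ETS factor, acts early in mesoderm that expresses Kdr, a receptor for VEGF. Tal1, a basic helix-loop-helix factor, works in a complex with the bridging protein Lmo2 and a GATA factor, such as Gata1 in red cells. Runx1 is needed for blood cells to emerge from endothelium and is transcribed from 2 promoters. The Tie1 receptor, the junction molecules Esam and Cdh5 (VE-cadherin) and the adhesion molecule Pecam1 mark endothelium, and Pecam1 is also present on mouse ES cells.

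Levels are log2 of the processed intensity minus the array's 75th percentile, so a value of 0 is that percentile and levels of different probes cannot be ranked. A probe was well above background where the scanner software marked it so. The share of such probes was 53.7% to 72.6% on 10 arrays and 43.7% on KOSR/LIF replicate 3, whose 75th percentile of intensity was 65.3 against 176 to 538 on the others. The lowest level that was well above background was -2.37 on that array and between -6.27 and -3.80 on the others. The deposited value table was set against the scanner files over all probes. Its columns for replicates 1 and 4 of 2i/LIF each matched the other's array best (r = 0.9935 and 0.9908, against 0.9631 and 0.9689 with their own). The columns for replicates 1 and 2 of KOSR/LIF were crossed in the same way (0.9951 and 0.9945, against 0.9783 and 0.9786). The column for KOSR/LIF replicate 3 matched no array above 0.9743 and its own at 0.9172. The other 6 columns matched their own arrays at 0.9901 to 0.9949. The crossed columns lie within a medium and so change no comparison between media. Results below come from the scanner files, and those that turn on KOSR/LIF replicate 3 are also given without it. Markers of ES cells were present throughout: 8 of 8 genes, Pou5f1, Nanog and Sox2 among them, were well above background on every array. Their levels differed in part between media. In the tests below, 3 of the 8 were called higher with 2i/LIF than with KOSR/LIF, and 0 lower. These were Nanog (log2 change 1.81), Esrrb (0.90) and Sox2 (0.80), and the list's median change was 0.82. KOSR/LIF against serum/LIF gave 1 call, Sox2 at -1.35 (list median -0.90). 2i/LIF against serum/LIF gave 1 call, Tdgf1 at -1.07 (list median -0.04).

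Promoter sequences of 3 genes, Tal1, Runx1 and Tie1, are shown here. In the tests below they were called lower in 2i/LIF than in both other media, and they have an entry in the RefSeq promoter table. Tie1 was well above background on no 2i/LIF array. Each window runs from 250 bases before a transcription start to 50 bases after it (RefSeq, build GRCm38.p6) and is written 5′ to 3′ on the gene's strand. Runx1 is shown with both of its windows and Tal1 with the first of a pair. The other Tal1 window, at chr4:115057561-115057860, held none of the motifs searched. Capitals mark matches on either strand to motifs of 5 factor families. The motif of the GATA factors, to which Gata1 belongs, was searched as AGATAA. That of the ETS factors, to which Etv2 belongs, was searched as CCGGAA. E-boxes, which Tal1 binds with its partners, were searched as CAGCTG, whose reverse complement is itself, and also in the form CATCTG. The motif of the Runx factors was TGTGGT and that of the Klf factors, which act in red cells and endothelium, was CACCC. No motif contains another. The windows lie at chr4:115056176-115056475 (Tal1, plus strand), chr16:92826025-92826324 and chr16:92697280-92697579 (Runx1, minus strand) and chr4:118489800-118490099 (Tie1, minus strand).
Tal1: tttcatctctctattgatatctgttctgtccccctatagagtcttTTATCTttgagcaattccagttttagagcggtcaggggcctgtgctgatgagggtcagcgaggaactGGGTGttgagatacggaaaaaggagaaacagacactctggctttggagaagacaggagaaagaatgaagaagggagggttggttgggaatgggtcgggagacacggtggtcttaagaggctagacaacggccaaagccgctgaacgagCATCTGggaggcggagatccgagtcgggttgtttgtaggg
Runx1 first window: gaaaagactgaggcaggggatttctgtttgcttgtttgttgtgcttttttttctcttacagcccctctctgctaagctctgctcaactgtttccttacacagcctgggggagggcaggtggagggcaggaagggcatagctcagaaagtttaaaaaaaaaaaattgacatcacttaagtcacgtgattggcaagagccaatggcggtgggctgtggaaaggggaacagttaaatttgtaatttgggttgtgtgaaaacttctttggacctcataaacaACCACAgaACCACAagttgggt
Runx1 second window: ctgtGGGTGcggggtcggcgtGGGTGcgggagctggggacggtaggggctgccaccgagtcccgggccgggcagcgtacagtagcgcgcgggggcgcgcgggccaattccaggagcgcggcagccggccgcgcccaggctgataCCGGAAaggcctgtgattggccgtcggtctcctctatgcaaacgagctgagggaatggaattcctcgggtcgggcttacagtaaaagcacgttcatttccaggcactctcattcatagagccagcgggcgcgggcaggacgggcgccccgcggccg
Tie1: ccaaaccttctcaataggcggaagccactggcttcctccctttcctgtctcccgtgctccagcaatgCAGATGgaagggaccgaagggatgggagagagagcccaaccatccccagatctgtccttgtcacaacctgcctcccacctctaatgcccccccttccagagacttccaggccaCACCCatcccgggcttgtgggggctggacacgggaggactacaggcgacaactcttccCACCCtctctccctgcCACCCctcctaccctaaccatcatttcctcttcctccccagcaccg
The first Tal1 window held 1 GATA match, 1 E-box match just after the start and 1 CACCC match. The first Runx1 window held TGTGGT at 2 places after the start, on the opposite strand, and the second held 1 ETS match and 2 CACCC matches. The Tie1 window held 1 CATCTG and 3 CACCC. Over all 32851 windows of this length, AGATAA occurred in 11.2%, CCGGAA in 14.9%, CAGCTG in 16.3%, CATCTG in 17.2%, TGTGGT in 16.8% and CACCC in 57.5%. Of the 8 windows of the genes described here, 1 held AGATAA, 2 held CCGGAA, none held CAGCTG, 3 held CATCTG, 1 held TGTGGT and 6 held CACCC. Esam, Lmo2, Cdh5 and Pecam1 have no window here. A match is a run of letters and not a measured binding site.

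In 2i/LIF, Esam, Runx1 and Tal1 stood below their serum/LIF levels, and with Lmo2 below their KOSR/LIF levels as well. Tie1 was also called lower in both comparisons, but it was well above background on no 2i/LIF array. With dim signals raised to each array's lowest signal well above background, it passed in neither. So raised, Tal1 also lost its call against KOSR/LIF. That Tal1 call stood near the threshold (adjusted p = 0.0482) and was kept in 8 of 26 alternatives. No member passed the test between KOSR/LIF and serum/LIF, and none rose in 2i/LIF against either medium. Etv2, Gata1, Kdr and Pecam1 passed in no comparison, and Cdh5 was too dim to be tested. The test was limma's moderated test over 16279 genes with Benjamini-Hochberg adjustment. In 2i/LIF against serum/LIF 4 of 9 tested members were called (3 with dim signals raised), beside 16.7% of all genes (6.74% higher and 9.98% lower), and the members' median log2 change was -0.97 beside 0.03 for all genes. In 2i/LIF against KOSR/LIF 5 of 9 were called (3 with dim signals raised), beside 14.7% of all genes (5.95% higher and 8.72% lower), with a median of -1.46 beside 0.02. In KOSR/LIF against serum/LIF 0 of 9 were called, beside 4.58% of all genes (2.37% higher and 2.21% lower), with a median of 0.31 beside -0.03, and 3 of 9 (Lmo2, Etv2 and Tie1) had an unadjusted p under 0.05. The comparisons share arrays, so their lists of called genes are not independent. The members were chosen with earlier results of these data known, so their shares and medians beside all genes are descriptions only. In bulk samples, fewer expressing cells and less RNA per cell cannot be told apart.

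Tal1, the helix-loop-helix factor that starts the blood programme, had levels of -1.96, -2.77 and -3.59 in serum/LIF, replicates 1 to 3. In 2i/LIF it read -5.43, -4.39, -4.59, -4.21 and -5.10, and was well above background on the last of these alone. In KOSR/LIF it read -3.61, -3.90 and -2.36, the last not well above background. All 5 arrays of 2i/LIF lay below all 6 of the other media, while serum/LIF and KOSR/LIF overlapped. The 2i/LIF level was 3.91-fold below that of serum/LIF (log2 change -1.97 ± 0.44 SE, adjusted p = 0.00904). With dim signals raised, the change was -1.72. Leaving out serum/LIF replicate 1 ended this call (-1.56, adjusted p = 0.0588). So did normexp background correction, a model of signal and background fitted to each array's unprocessed signals (-0.50, adjusted p = 0.615). Normexp added an offset of 50 to each corrected signal, which by construction shrinks the log2 changes of dim probes. Against KOSR/LIF, Tal1 was 2.74-fold lower (-1.46 ± 0.44, adjusted p = 0.0482). That call stood near the threshold and was lost in 8 of 11 fits that each left out 1 array, among them the fit without KOSR/LIF replicate 3 (-0.99, adjusted p = 0.192), and with normexp (-0.69, adjusted p = 0.302). The call was also lost with dim signals raised (-1.21). KOSR/LIF and serum/LIF differed by -0.51 (95% interval -1.60 to 0.57).

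Lmo2, the LIM-domain protein that bridges Tal1 and GATA factors, read -3.0, -2.36 and -2.45 in serum/LIF. In 2i/LIF its levels were -3.08, -5.00, -3.25, -3.53 and -2.76, all but the second well above background. In KOSR/LIF they were -1.54, -1.08 and -1.80. The KOSR/LIF arrays were the 3 highest of the 11, with no overlap with either other medium, and serum/LIF and 2i/LIF overlapped. Lmo2 was 4.14-fold lower in 2i/LIF than in KOSR/LIF (-2.05 ± 0.44, adjusted p = 0.00831), a call kept in 26 of 26 alternatives, although with normexp background correction the change was -1.0 (adjusted p = 0.0191). Against serum/LIF the change in 2i/LIF was -0.92 ± 0.44 (adjusted p = 0.206). KOSR/LIF exceeded serum/LIF by 1.13 ± 0.49 (adjusted p = 0.241), which did not pass. With scan day as a block that difference was 1.66 (adjusted p = 0.0228) and with slide as a block 1.38 (adjusted p = 0.0386).

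Runx1, needed for blood cells to leave the endothelium, had 2 probes. Probe A_55_P2183438 stands for the gene because its mean was the higher, and read -1.36, -1.96 and -2.22 in serum/LIF. In 2i/LIF it read -5.14, -2.78, -4.44, -4.24 and -4.09, and was well above background on replicates 2 and 5. In KOSR/LIF it read -0.71, -0.50 and -2.20, the last not well above background. All 2i/LIF arrays lay below all others, and serum/LIF and KOSR/LIF overlapped through KOSR/LIF replicate 3. Runx1 fell 4.90-fold in 2i/LIF against serum/LIF (-2.29 ± 0.51, adjusted p = 0.00850) and was 8.02-fold lower than in KOSR/LIF (-3.0 ± 0.51, adjusted p = 0.00225). Leaving out serum/LIF replicate 1 ended the first call (-2.05, adjusted p = 0.0507), and so did normexp background correction (-0.87, adjusted p = 0.112). The second was kept in 26 of 26 alternatives, and with normexp the change was -1.67. Probe A_51_P206585 read -3.12, -3.99 and -3.32 in serum/LIF, -6.79, -5.73, -6.65, -6.17 and -8.11 in 2i/LIF, and -2.01, -3.04 and -4.31 in KOSR/LIF. It was well above background on no 2i/LIF array, so its folds are bounds: 2i/LIF lay at least 2.48-fold below serum/LIF and at least 3.18-fold below KOSR/LIF. The latter bound counts KOSR/LIF replicate 3 as measured (-4.31), though not well above background, so it is not strict. In the fit over all named probes the differences from serum/LIF and KOSR/LIF had adjusted p = 0.00209 and 0.00149. That fit called 15.9% of 21274 probes in the first comparison and 13.6% in the second. Both probes thus gave the same order, with 2i/LIF lowest. KOSR/LIF and serum/LIF differed by 0.71 at the first probe (95% interval -0.54 to 1.96).

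Gata1, the GATA factor of red cells and platelets, is an X-linked gene that read -2.67, -1.45 and -1.91 in serum/LIF. In 2i/LIF it read -3.26, -2.68, -3.97, -2.52 and -2.46, and in KOSR/LIF -1.68, -1.23 and -2.39. It was well above background on 10 arrays, all but KOSR/LIF replicate 3. The 2i/LIF arrays overlapped those of serum/LIF through serum/LIF replicate 1 and lay below those of KOSR/LIF. The change in 2i/LIF was -0.97 ± 0.41 against serum/LIF (adjusted p = 0.151) and -1.21 ± 0.41 against KOSR/LIF (adjusted p = 0.0746), and neither passed. KOSR/LIF and serum/LIF differed by 0.24 (95% interval -0.77 to 1.25).

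Etv2, the ETS factor that starts the endothelial programme in mesoderm, was ordered differently from the other factors, with KOSR/LIF lowest. Probe A_51_P137560, which stands for the gene, read -0.29, -0.23 and -0.44 in serum/LIF, well above background on every array of all media. It read -0.68, -0.78, -0.05, 0.11 and 0.53 in 2i/LIF and -1.08, -0.90 and -1.57 in KOSR/LIF. The KOSR/LIF arrays were the 3 lowest of the 11, and the 2i/LIF arrays spread to both sides of serum/LIF. The difference between 2i/LIF and KOSR/LIF was 1.01 ± 0.31 and missed the threshold (adjusted p = 0.0501). Of 11 fits that each left out 1 array it passed in 2, without 2i/LIF replicate 1 (adjusted p = 0.0373) or replicate 2 (adjusted p = 0.0225). Over the 11 fits the difference ran from 0.81 to 1.16, and the adjusted p rose to 0.164. KOSR/LIF lay 0.86 below serum/LIF (log2 change -0.86 ± 0.35, adjusted p = 0.206). The second probe, A_55_P1953588, ranged from -1.13 to -1.02 in serum/LIF, from -1.79 to -0.38 with 2i/LIF and from -2.15 to -1.66 with KOSR/LIF. At that probe KOSR/LIF again lay below serum/LIF without overlap (-0.83, adjusted p = 0.226, in a fit that called 4.13% of probes), while it overlapped 2i/LIF (0.74, adjusted p = 0.144). 2i/LIF and serum/LIF differed by 0.15 at the first probe (95% interval -0.53 to 0.83) and by -0.09 at the second.

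Among the receptors, Kdr, the main VEGF receptor of endothelium and an early mesoderm gene, was read differently by its 2 probes. Probe A_55_P2094469, which stands for the gene, was well above background on all 11 arrays. It read 2.83, 2.68 and 3.43 in serum/LIF, 3.65, 3.66, 3.07, 3.01 and 3.54 in 2i/LIF, and 2.75, 2.76 and 4.68 in KOSR/LIF. The media overlapped, and KOSR/LIF replicate 3 was the highest of all arrays. 2i/LIF and KOSR/LIF differed by -0.01 (95% interval -0.93 to 0.91), and by 0.63 without KOSR/LIF replicate 3. Against serum/LIF, 2i/LIF differed by 0.41 (95% interval -0.51 to 1.33) and KOSR/LIF by 0.42 (-0.60 to 1.44). Without KOSR/LIF replicate 3 the last difference was -0.22. Probe A_51_P316553 read -3.06, -4.16 and -2.85 in serum/LIF, -2.60, -3.46, -3.11, -3.52 and -1.36 in 2i/LIF, and -3.72, -4.90 and -4.35 in KOSR/LIF. It was well above background on 7 of 11 arrays, among them 4 of 5 in 2i/LIF and 1 of 3 in KOSR/LIF. Its KOSR/LIF readings lay below all 5 of 2i/LIF. Those of KOSR/LIF replicates 2 and 3 were not well above background, so their place below 2i/LIF is uncertain. The difference of 1.52 ± 0.50 did not pass in the fit over probes (adjusted p = 0.0707) and was 0.74 with dim signals raised. The pair of probes thus read KOSR/LIF differently, the second in part on background readings, and no direction is given for Kdr.

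Tie1, the endothelial receptor of the angiopoietin system that pairs with Tek, was near the background limit throughout. It read -5.48, -4.19 and -5.12 in serum/LIF, the last 2 of these well above background. In 2i/LIF it read -7.11, -6.01, -6.60, -6.47 and -6.16, none well above background, and in KOSR/LIF -3.85, -3.62 and -4.53, the first 2 well above. All 2i/LIF arrays lay below all 6 others. Tie1 was at least 1.72-fold lower in 2i/LIF than in KOSR/LIF (measured means -6.47 and -4.00, adjusted p = 0.000732). That bound counts KOSR/LIF replicate 3 as measured, though not well above background, so it is not strict. With dim signals raised, the log2 change was -1.51 and no longer passed (adjusted p = 0.0706), nor did it with normexp (-0.81, adjusted p = 0.162). Against serum/LIF the fitted change of -1.54 ± 0.35 passed (adjusted p = 0.00956), but no fold can be given, since with dim signals raised it shrank to -0.29 (adjusted p = 0.825) and with normexp to -0.15 (adjusted p = 0.977). Leaving out serum/LIF replicate 2 also ended this call (-1.17, adjusted p = 0.0569). KOSR/LIF exceeded serum/LIF by 0.93 ± 0.39, which did not pass (adjusted p = 0.226).

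Of the junction and surface molecules, Esam was lower in 2i/LIF than in both other media. This immunoglobulin-family protein of endothelial tight junctions, also found on platelets and blood stem cells, read -1.81, -2.19 and -1.72 in serum/LIF. In KOSR/LIF it read -1.62, -2.35 and -1.35. In 2i/LIF it read -3.75, -6.06, -5.04, -6.52 and -4.67, and was well above background on the first and last. All 2i/LIF arrays lay at least 1 log2 unit below all others, and serum/LIF and KOSR/LIF overlapped. Esam in 2i/LIF was 9.83-fold below its serum/LIF level (-3.30 ± 0.53, adjusted p = 0.00120) and 10.8-fold lower than in KOSR/LIF (-3.43 ± 0.53, adjusted p = 0.00124). With dim signals raised, these changes were -2.38 and -2.51, and with normexp background correction they were -0.98 (adjusted p = 0.0241) and -1.26 (adjusted p = 0.00580). The call against serum/LIF was kept in 26 of 27 alternatives, and that against KOSR/LIF in 26 of 26. KOSR/LIF and serum/LIF differed by 0.14 (95% interval -1.17 to 1.44).

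Cdh5, the cadherin of endothelial junctions, was well above background on only 2 of 11 arrays and was not tested. It read -6.26, -1.61 and -6.15 in serum/LIF, -6.86, -5.75, -6.67, -6.26 and -6.58 in 2i/LIF, and -3.65, -4.45 and -4.27 in KOSR/LIF. Serum/LIF replicate 2 and KOSR/LIF replicate 1 carried the signals above background, the former far from its own group. In the deposited value table the log2 value of that serum/LIF sample was 3.71, beside 3.47 and 3.91 for the others. The measured means were -4.67 ± 2.65 (SD, n = 3) in serum/LIF, -6.43 ± 0.43 (n = 5) in 2i/LIF and -4.12 ± 0.42 (n = 3) in KOSR/LIF. All KOSR/LIF arrays lay above all 2i/LIF arrays, but 1 of 3 KOSR/LIF arrays and 0 of 5 of 2i/LIF were well above background, so no fold is given.

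Pecam1, an adhesion molecule of endothelium, platelets and ES cells, was well above background on every array. It read -0.46, -0.34 and 0.22 in serum/LIF, 0.03, 1.57, 0.66, 0.36 and 0.89 in 2i/LIF, and 0.30, 0.26 and -0.21 in KOSR/LIF. Of the 5 arrays of 2i/LIF, 4 lay above all arrays of serum/LIF and KOSR/LIF, and 2i/LIF replicate 1 lay among them. The difference between 2i/LIF and serum/LIF was 0.90 ± 0.33 and did not pass (adjusted p = 0.0930). Of 11 fits that each left out 1 array this difference passed in 1, without 2i/LIF replicate 1 (1.06, adjusted p = 0.0448). Over the 11 fits it fell as low as 0.68, and the adjusted p rose to 0.311. 2i/LIF exceeded KOSR/LIF by 0.59 (95% interval -0.14 to 1.31), and KOSR/LIF exceeded serum/LIF by 0.31 (-0.50 to 1.12).

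**Figure D1:**
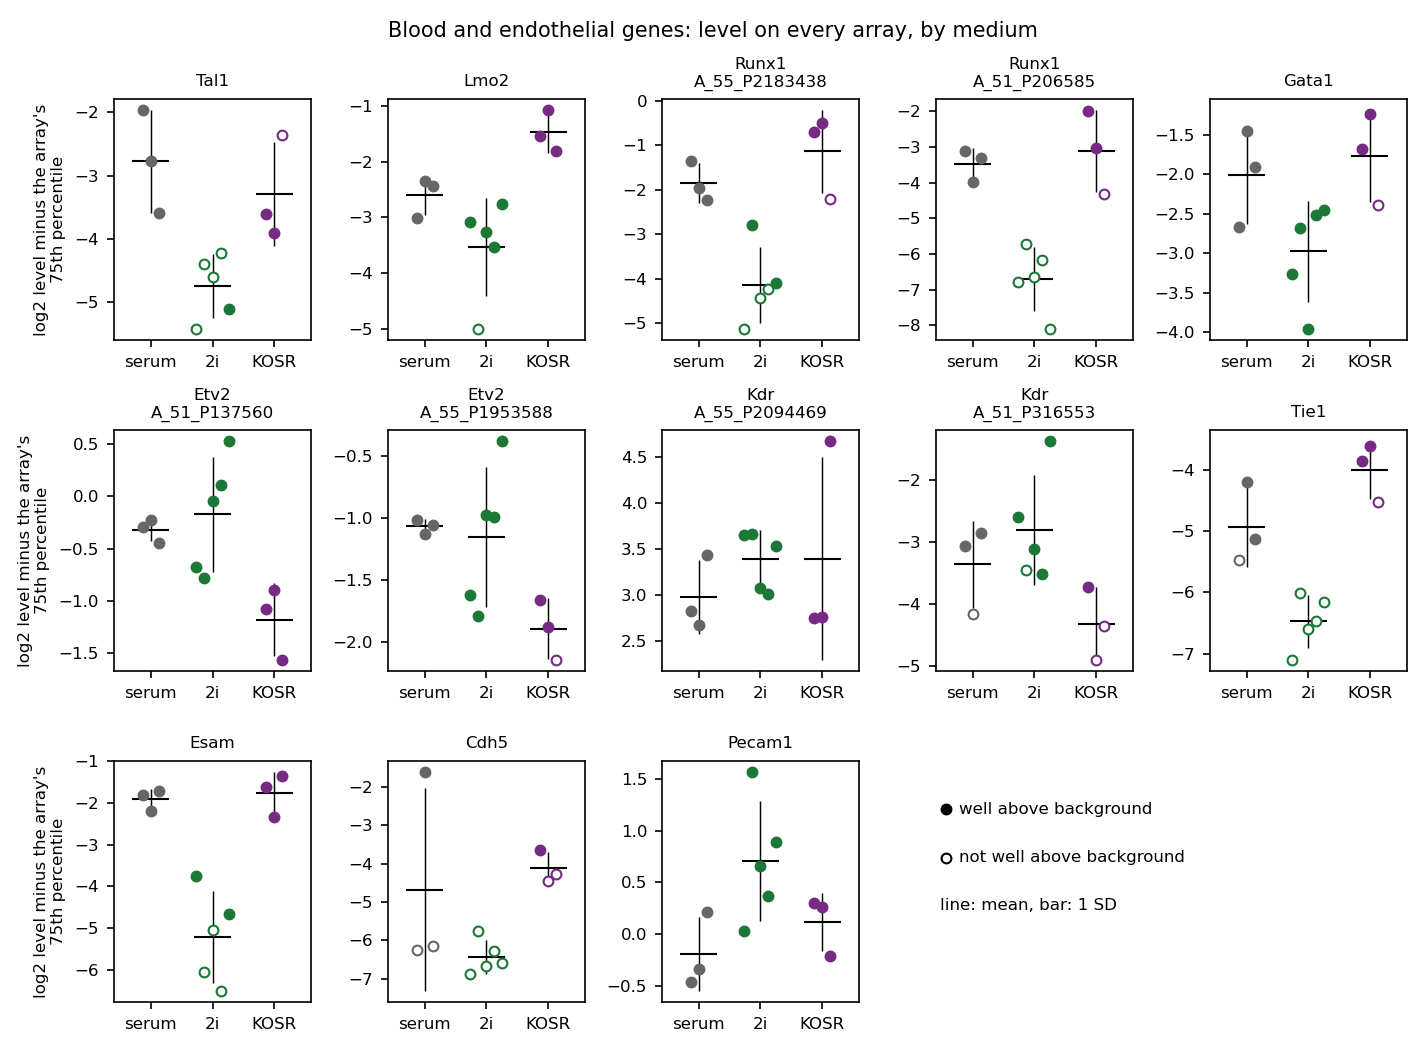
Level of each of the 13 probes on every array (vertical axis: log2 processed intensity minus the array's 75th percentile; horizontal axis: medium). Points are arrays, filled where well above background, and lines and bars are the mean and 1 SD. The 2i/LIF points of Tal1, Runx1, Tie1 and Esam lie below all others and are mostly open, while the media overlap for the upper Kdr probe, with KOSR/LIF replicate 3 at 4.68.

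Groups that did not overlap were counted for the 9 tested genes as well. Between 2i/LIF and serum/LIF 4 of 9 genes did not overlap, beside 25.7% of all genes. Between 2i/LIF and KOSR/LIF 7 of 9 did not overlap (Tal1, Runx1, Esam, Tie1, Lmo2, Gata1 and Etv2), beside 19.6%. For Tal1, Runx1, Tie1 and Gata1, KOSR/LIF replicate 3 was not well above background, so its place beside the 2i/LIF arrays is uncertain. At Gata1 that array read -2.39, beside a highest 2i/LIF level of -2.46. Between KOSR/LIF and serum/LIF Lmo2 and Etv2 did not overlap, 2 of 9, beside 28.4% of all genes. The last share is close to that of all genes. Arrays were scanned on 3 days, and 1 of them (day 1) held 2 arrays of each medium. Within that day Esam, Runx1, Tie1 and Lmo2 kept their calls in 2i/LIF against KOSR/LIF and Tal1 did not (-0.65, adjusted p = 0.258). Within that day against serum/LIF, Esam, Runx1 and Tal1 kept their calls and Tie1 did not (-1.70, adjusted p = 0.0562). Day 3 held 1 array of serum/LIF and 2 of 2i/LIF. There the 4 genes were lower in 2i/LIF by the same sign without passing, Esam at -2.49 (adjusted p = 0.0587), Runx1 at -2.39 (0.0775), Tal1 at -1.67 (0.0783) and Tie1 at -1.51 (0.200). Day 2 held 1 array of 2i/LIF and 1 of KOSR/LIF, which allows no test. On that day the 2i/LIF array was not well above background for Esam, Lmo2, Tal1 and Tie1, and the KOSR/LIF array was not for Tal1, Tie1 and Runx1, so no size is read from that day.

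**Figure D2:**
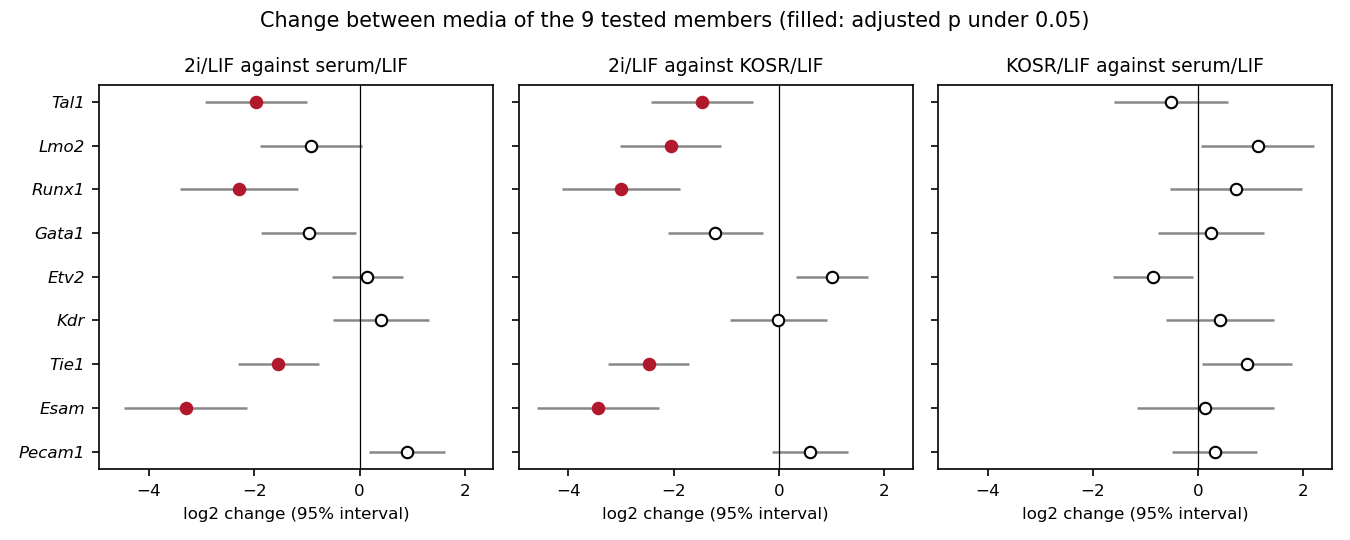
Log2 change of the 9 tested genes in each comparison (horizontal axis) with its 95% interval, filled where the adjusted p was under 0.05. Esam, Runx1, Tie1 and Tal1 are filled left of 0 in both comparisons of 2i/LIF, Lmo2 in that against KOSR/LIF alone, and no gene is filled in KOSR/LIF against serum/LIF.

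Other genes of the 2 lineages, in 4 lists, moved in both directions, and the list medians stayed within 0.35 of 0 in all 3 comparisons. The shares called in each list stand beside 16.7% of all genes in 2i/LIF against serum/LIF, 14.7% in 2i/LIF against KOSR/LIF and 4.58% in KOSR/LIF against serum/LIF. Of 28 tested transcription factors, 4 rose and 4 fell in 2i/LIF against serum/LIF (28.6% called, median 0.02). Nfe2, a factor of platelet and red cell genes, rose by 3.68 ± 0.60 (log2), Etv6 by 1.40 ± 0.33 and Tcf4 by 1.12 ± 0.21. Lmo4, a LIM protein related to Lmo2, changed by -2.23 ± 0.24, Sox18, a factor of lymphatic endothelium, by -2.14 ± 0.55 (well above background on 1 of 5 arrays of 2i/LIF, -1.55 with dim signals raised) and Ets1 by -1.25 ± 0.27. Against KOSR/LIF 3 rose and 4 fell (25.0%, median 0.32). Nfe2 rose by 3.19 ± 0.60, Klf2, the flow-responsive factor of endothelium, by 1.81 ± 0.28 and Etv6 by 1.79 ± 0.33, while Sox7 was at least 4.81-fold lower (well above background on 2 of 3 arrays of KOSR/LIF, adjusted p = 0.00137), Meis1 changed by -2.30 ± 0.41 and Sox17 by -1.69 ± 0.47. Nfe2 was well above background on 2 of 3 arrays each of serum/LIF and KOSR/LIF. With dim signals raised, its rises against them were 3.35 and 2.48. In KOSR/LIF against serum/LIF, Klf2 changed by -1.66 ± 0.31 and was the only one of the 28 called (3.57%, median -0.20).

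Of 25 tested ligands and receptors, 4 rose and 4 fell in 2i/LIF against serum/LIF (32%, median -0.09). Flt1, a VEGF receptor related to Kdr, changed by -4.06 ± 0.48 and was well above background on 1 of 5 arrays of 2i/LIF. Robo4 changed by -3.0 ± 0.84 and Efnb2, the ephrin of arteries, by -2.86 ± 0.28, while S1pr1 rose by 3.35 ± 0.55, the stem cell factor receptor Kit by 2.00 ± 0.29 and Ephb4, the receptor of Efnb2 in veins, by 0.93 ± 0.21. Against KOSR/LIF 6 rose and 6 fell (48.0%, median -0.12), with Robo4 at -4.49 ± 0.84, the BMP-binding protein Bmper at -3.39 ± 0.73 (well above background on 1 of 5 arrays of 2i/LIF, -2.60 with dim signals raised), Efnb2 at -2.58 ± 0.28, S1pr1 at 3.98 ± 0.55 (well above background on 1 of 3 arrays of KOSR/LIF, 3.06 with dim signals raised), Nrp2 at 2.34 ± 0.53 and the Notch ligand Jag1 at 1.74 ± 0.26. Between KOSR/LIF and serum/LIF 1 rose and 4 fell (20.0%, median 0.01). Nrp2, a co-receptor for VEGF, changed by -4.05 ± 0.59, Flt1 by -2.24 ± 0.54 and Jag1 by -1.57 ± 0.29, and Angpt2, a ligand of Tek, rose by 2.16 ± 0.47. Flt1 was well above background on 2 of 3 arrays of KOSR/LIF (-1.68 with dim signals raised). Angpt2 was so on 1 of 3 arrays of serum/LIF (1.90 with dim signals raised).

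Of 25 tested junction and surface genes, 5 rose and 5 fell in 2i/LIF against serum/LIF (40.0%, median -0.04). The scavenger receptor Stab2 rose by 3.29 ± 0.42 (well above background on 1 of 3 arrays of serum/LIF, 2.93 with dim signals raised), Icam2 by 2.48 ± 0.51 and Mmrn2 by 1.57 ± 0.26, while thrombomodulin (Thbd) changed by -2.36 ± 0.63 (well above background on 2 of 5 arrays of 2i/LIF, -1.23 with dim signals raised), the protein C receptor Procr by -2.01 ± 0.29 and Plvap by -1.88 ± 0.26. Against KOSR/LIF 4 rose and 3 fell (28.0%, median 0.29), with Jam2 at 1.91 ± 0.22, She at 1.67 ± 0.41, Mmrn2 at 1.14 ± 0.26, Plvap at -2.23 ± 0.26, Procr at -1.66 ± 0.29 and the nitric oxide synthase Nos3 at -1.56 ± 0.29. In KOSR/LIF against serum/LIF Stab2 rose by 2.32 ± 0.47 (2.10 with dim signals raised) and no other of the 25 was called (4.00%, median -0.33). Of 20 tested blood cell markers, 3 rose and 4 fell in 2i/LIF against serum/LIF (35.0%, median -0.03). The platelet chemokine Pf4 was at least 7.37-fold higher (adjusted p = 0.000927), Ly6a (Sca-1) rose by 4.21 ± 0.56 and Laptm5 by 1.79 ± 0.33, while Spn (CD43) changed by -2.38 ± 0.63, Coro1a by -1.97 ± 0.32 and Vav1 by -1.90 ± 0.32. Against KOSR/LIF 3 rose and 2 fell (25.0%, median -0.35): Ly6a at 4.04 ± 0.56, Pf4 at least 3.36-fold higher (adjusted p = 0.00252), Laptm5 at 1.77 ± 0.33, the erythropoietin receptor Epor at -1.30 ± 0.31 and Hba-a2 at -1.0 ± 0.29. Hba-a2 has a near-identical copy, so its signal is uncertain. In KOSR/LIF against serum/LIF Vav1 changed by -1.61 ± 0.36, the only one of the 20 called (5.00%, median 0.11). It was well above background on 2 of 3 arrays of KOSR/LIF, and its change was -1.26 with dim signals raised. The adjusted p of these named genes lay at or below 0.0413 in every case. Robo4, Sox18, Thbd, Spn, Etv6 and Ephb4 in 2i/LIF against serum/LIF each lost the call when at least 1 single array was left out. So did Sox17, Hba-a2, She, Mmrn2 and Nrp2 against KOSR/LIF, and Angpt2, Flt1, Jag1, Klf2, Stab2 and Vav1 between KOSR/LIF and serum/LIF. In these comparisons Hba-a2 lost the call in 10 of 11 such fits, Flt1 in 8, and Sox17 and Vav1 in 6 each. Robo4 and Angpt2 lost it in 5 each, Klf2 and Stab2 in 4 each, and the others in 1 or 2. With normexp, Sox18, Ets1, Thbd and Vav1 lost the call in 2i/LIF against serum/LIF, Nfe2, Pf4 and Hba-a2 in 2i/LIF against KOSR/LIF, and Stab2, Angpt2, Flt1, Jag1 and Vav1 in KOSR/LIF against serum/LIF.

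**Figure D3:**
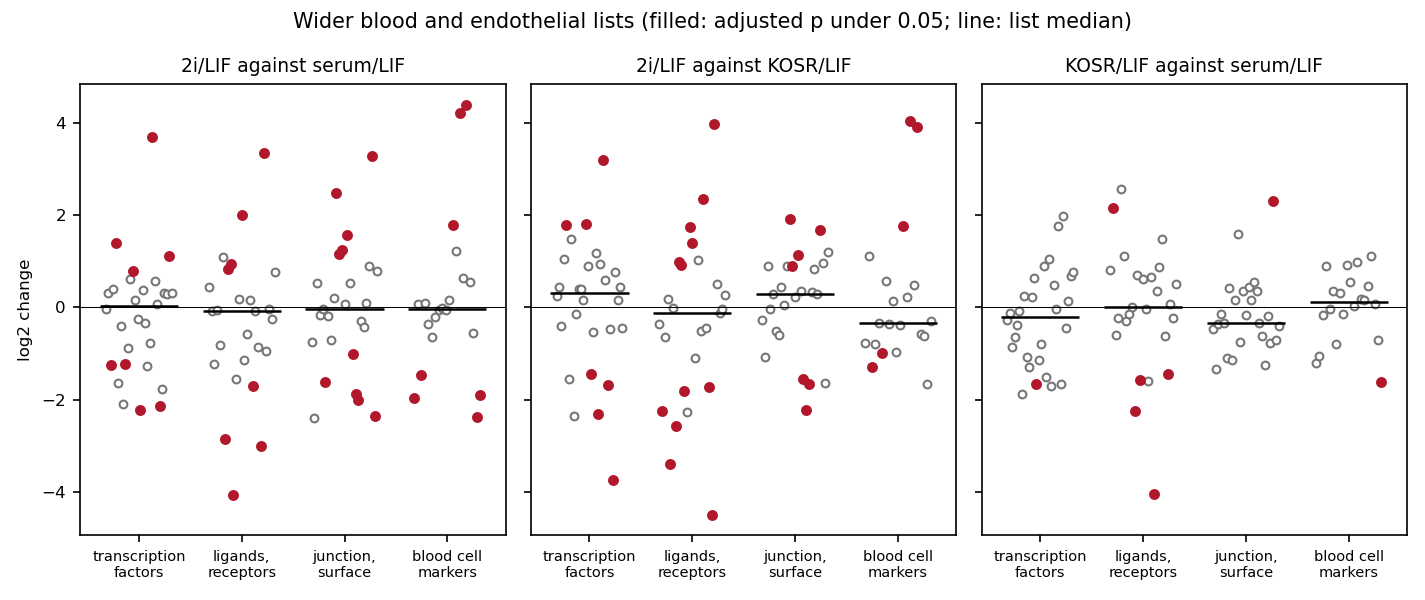
Log2 change of every tested gene of the 4 wider lists in each comparison (vertical axis), grouped by list (horizontal axis), filled where the adjusted p was under 0.05, with the list's median as a line. Filled points lie on both sides of 0 in both comparisons of 2i/LIF, and in KOSR/LIF against serum/LIF 2 genes, Angpt2 and Stab2, are filled above 0.

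Markers of other cells that an ES culture could hold were in part lower in 2i/LIF as well. The mean level of 10 fibroblast markers lay at -3.13 to -1.97 over the serum/LIF arrays, -4.14 to -3.38 over those of 2i/LIF and -2.43 to -1.82 over those of KOSR/LIF, and 4 of 8 tested, Col1a1, Col1a2, Col6a1 and Dcn, were lower in 2i/LIF than in each other medium, beside 9.98% of all genes lower against serum/LIF and 8.72% against KOSR/LIF. Their summed intensity, over the array's 75th percentile, was 3.95 to 13.8, 1.94 to 2.59 and 7.49 to 12.7 in the 3 media. Fap was well above background on no array of any medium, Postn and Dcn on none of 2i/LIF, and Postn and Lum on none of KOSR/LIF. Of 11 mesoderm markers the mean level was -3.62 to -3.05, -4.25 to -3.77 and -3.16 to -2.55, and the summed intensity 2.24 to 3.11, 1.65 to 2.84 and 3.20 to 3.65. Of the 9 tested, 2 were lower in 2i/LIF against serum/LIF (Hand1 and Wnt3) and 2 against KOSR/LIF (Hand1 and Pdgfra). Mixl1 and Foxf1 were well above background on no serum/LIF array, Hand1 and Wnt3 on none of 2i/LIF and Foxf1 on none of KOSR/LIF. Of 10 primitive endoderm markers the mean level was -3.09 to -2.09, -4.36 to -3.15 and -2.45 to 0.38, and the summed intensity 12.8 to 20.0, 10.6 to 20.3 and 6.22 to 45.4. Of the 9 tested, 2 were lower in 2i/LIF against serum/LIF and 7 against KOSR/LIF, Sox7 and Sox17 among them, while 1 was higher in KOSR/LIF than in serum/LIF. Afp was well above background on no serum/LIF array and Sox7 on none of 2i/LIF. The part of these markers in the lower Esam, Runx1, Tal1, Tie1 and Lmo2 of 2i/LIF was not tested. KOSR/LIF replicate 3, the array with the least signal, was not well above background for Tal1, Runx1 and Tie1. Without it Esam, Runx1, Tie1 and Lmo2 kept their calls in 2i/LIF against KOSR/LIF, and Tal1 did not.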

How the data were processed

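Mouse ES cells in 3 media were measured on 11 arrays. The deposited scanner values are intensities that Agilent Feature Extraction 11.0.1.1 had background-subtracted and detrended within each array, per the file headers. The authors' deposited value table holds linear intensities too, made by steps not given in the sources used. Spots without outlier flags were averaged per probe, and probes were named by RefSeq accession through a gene table of GRCm38.p6, while the probe design used mm9. Each array's 75th percentile of log2 intensity was subtracted. Probes well above background on at least 3 of 11 arrays entered, and the one with the highest mean stood for its gene (16279 genes, 21274 named probes). One limma 3.58.1 model in R 4.3.3 over all arrays, without covariates, gave 3 two-sided comparisons with Benjamini-Hochberg adjustment and a threshold of 0.05. It was tested on simulated data. Where no array of a medium had a probe well above background, the fold is a bound, given as "at least": the brighter medium's mean over that of the other medium, each of whose arrays took the dim signal or its lowest signal well above background, whichever was higher. Raising dim signals to that lowest signal and leaving out scan day 2 were chosen after seeing the data. A bound keeps the brighter medium's dim readings as measured, so against KOSR/LIF it is not strict for Tie1, Sox7 and Runx1 probe A_51_P206585. The members, lists and named-gene rule (all members, and per list and comparison up to 3 called genes of largest change each way) were chosen with earlier results of these data known. The genes whose levels were most like those of Kdr are not reported here. Normexp used the median spot signal in place of the mean, with an offset of 50. Nothing says that repeated samples of a line were separate cultures, so p-values reflect the spread among these samples, which may be technical. The number of arrays limits the precision.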

Additional observations from a re-analysis of the deposited data

How the results depend on the processing

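Of 708 values of the members over 27 alternatives, 629 kept their direction and their side of the threshold, 36 lost and 18 gained a call, and 25 changed sign, none of them called. Members called in 2i/LIF against serum/LIF, 4 as reported, numbered 1 with normexp (Esam) and 0 within scan day 3, and 2 to 5 when single arrays were left out. Against KOSR/LIF, 5 as reported, they numbered 3 with normexp, 3 with dim signals raised, and 4 to 5 when single arrays were left out. Between KOSR/LIF and serum/LIF, 0 as reported, they numbered 2 with slide as a block (Lmo2 and Tal1, the latter at -1.35, adjusted p = 0.0487), 1 with scan day as a block, 1 without scan day 2 (Lmo2 in both), and 0 to 0 when single arrays were left out. All genes called numbered 1755, 374 and 1517 with normexp in 2i/LIF against serum/LIF, KOSR/LIF against serum/LIF and 2i/LIF against KOSR/LIF. They numbered 451 between KOSR/LIF and serum/LIF with no filter on dim probes, 1117 in 2i/LIF against serum/LIF within scan day 3, and 1869 to 3203, 225 to 915 and 1759 to 2593 when single arrays were left out. For these, the smaller number of samples within a day and the shrinking of dim changes by the normexp offset of 50 are by construction. Otherwise the cause was not tested.

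Replicate numbers did not pair the samples: deviations of same-numbered arrays correlated at -0.20 to 0.18. Arrays of different media scanned on the same day correlated at -0.19 to 0.25. The highest values of all pairs between media, 0.25 and 0.24, were of arrays scanned on the same day. With a replicate block, 3 members were called in 2i/LIF against serum/LIF (Tal1 lost its call at -2.03, adjusted p = 0.0643), 0 between KOSR/LIF and serum/LIF and 5 in 2i/LIF against KOSR/LIF (Gata1 in place of Tal1), where all genes called fell to 1408. With the deposited values, 4, 0 and 5 members were called, Gata1 again in place of Tal1.

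Sign changes were as follows. Kdr in 2i/LIF against KOSR/LIF was 0.20 with normexp, 0.75 as the mean of its probes, 0.064 with the replicate block, 0.27 with slide as a block, 0.28 within scan day 1, 0.33 in the deposited table, 0.56 without scan day 2 and -0.33 to 0.63 when single arrays were left out. Between KOSR/LIF and serum/LIF Kdr was -0.27 as the mean of its probes, -0.0054 with slide as a block, -0.22 without scan day 2 and -0.22 to 0.74 when single arrays were left out. Esam there was -0.0074 with quantile normalization, -0.066 in the deposited table, -0.074 without scan day 2 and -0.074 to 0.42 when single arrays were left out. Tal1 there was 0.19 with normexp. Gata1 there was -0.076 with quantile normalization and -0.088 to 0.55 when single arrays were left out. Etv2 in 2i/LIF against serum/LIF was -0.18 with the replicate block and -0.028 to 0.30 when single arrays were left out. Signal over background limits Tie1, Cdh5 and the Runx1 probe A_51_P206585, none of which was well above background on any 2i/LIF array.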

Other observations

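For 5 members well above background on at least 8 of 11 arrays, the tested genes whose level over the 11 arrays was most like theirs were ranked by Pearson's r. These are descriptions with no test, since the arrays share media and scan days. Esam was most like Myh6 (r = 0.98), Spred1 (0.98) and Drc1 (0.97), and Lmo2 most like Cbln1 (0.97), Efr3b (0.94) and Plcd1 (0.94). Pecam1 was most like Tnfaip6 (0.94), Dkk3 (0.93) and Nfe2l1 (0.93). Etv2 was most like Mob1b (0.93), Taf5l (0.92) and Tnip1 (0.91), and Gata1 most like Fance (0.97), Zfp560 (0.94) and Traf5 (0.92).

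Among the members, Runx1 and Tie1 had levels that varied together over the 11 arrays at r = 0.92, while Pecam1 ran opposite to Esam at r = -0.72, again as descriptions over arrays of 3 media. Runx1 was well above background on 7 of the 11 arrays and Tie1 on 4, so the first value rests in part on background readings. Esam was well above background on 8, so the second value and the likeness of Esam to Myh6, Spred1 and Drc1 do so too.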
